A study of Ovis aries with 36 samples.

Results

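The genes described here are 6 secreted inflammatory mediators and the enzyme PTGS2 in cultured sheep ruminal epithelial cells. They were chosen by symbol, with earlier results of these data known. Of the 8 asked for (IL1A, IL1B, IL6, IL11, LIF, CXCL8, CCL2 and PTGS2), 7 had a row among the 35223 genes of the count table. CCL2 was not analysed here, because no row carried that symbol, and a mast cell proteinase listed as MCP1 was not taken for it. All 7 passed the filter on low counts, which left 22488 genes for testing.

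Interleukin 1 alpha (IL1A) and interleukin 1 beta (IL1B) are alarm cytokines that act through a shared receptor and its MyD88 adaptor. Signalling through it induces CXCL8 and PTGS2 and the interleukin 6 family members IL6, IL11 and LIF in epithelia and stroma. IL6, IL11 and LIF each pair a receptor of their own with the common chain gp130 (IL6ST) and signal through JAK kinases and STAT3. CXCL8 draws neutrophils through the receptors CXCR1 and CXCR2, and PTGS2 (cyclooxygenase 2) makes the precursor of the prostaglandins. The rumen lining is a stratified keratinised epithelium that takes up the volatile fatty acids (VFAs) made by microbial fermentation.

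Cells at 70% density were kept for 2 h in serum-free DMEM/F12 with 100 nM dexamethasone, a synthetic glucocorticoid used to set their clocks in step. They then received 1 of 2 VFA mixtures, both at pH 7.2. Grain medium held 115.78 mM VFA in all, with 71.1 mM acetate, 20.1 mM propionate, 16.0 mM butyrate, 1.7 mM valerate, 1.1 mM isobutyrate and 5.3 mM isovalerate. Hay medium held 89.79 mM, with 60.8 mM acetate, 14.6 mM propionate, 9.2 mM butyrate, 1.2 mM valerate, 1.0 mM isobutyrate and 3.0 mM isovalerate. Cells were harvested at 24 h (T0), 28 h (T4), 32 h (T8), 36 h (T12), 40 h (T16) and 44 h (T20), with 3 RNA-seq libraries for each medium and harvest, 36 in all. The study asked how the concentration of VFAs bears on the daily rhythm of gene expression. The media differed in every acid and in total concentration together, so that single acids cannot be told apart, and cells without VFA were not analysed here. The labels leave it unsaid whether replicate libraries stem from different cultures or animals. P-values here measure the spread between these libraries, which may be technical.

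The libraries held 52397135 to 68120879 counts, and those of 1 group correlated at 0.996 to 0.997 in log2(CPM + 0.5). Levels are given as CPM, the count of a gene scaled to a common library size with edgeR's TMM factors, which ranged from 0.859 to 1.09. The factors were lowest in the 3 Grain libraries of T12, at 0.859, 0.869 and 0.864. Markers of cell types were read from lists, and their levels do not settle the identity of the cells. None of the 10 basal keratinocyte markers and none of the 7 simple epithelial markers averaged under 1 CPM over the 36 libraries. Their summed levels, as the lowest, median and highest library, were 513, 779 and 1175 CPM in Grain and 563, 642 and 794 CPM in Hay for the keratinocyte list. The simple epithelial list summed to 151, 178 and 235 CPM in Grain and 262, 284 and 314 CPM in Hay. In the mean of the harvests, 4 keratinocyte markers were higher and 6 lower in Grain. Of the simple epithelial markers 2 were higher (EPCAM and CLDN7) and 5 lower (KRT8, KRT18, KRT19, CDH1 and CLDN4), with a median log2 fold change of -0.56. The 10 fibroblast markers, among them vimentin and collagens, all averaged above 1 CPM too. They summed to 20193, 25838 and 33687 CPM in Grain and 17838, 20459 and 24984 CPM in Hay. In each medium this was far above the sums of the keratinocyte and simple epithelial lists. Of these 10, 5 were higher and 5 lower in Grain in the mean of the harvests. Vimentin (VIM) had 13167 CPM in Grain and 6375 CPM in Hay, while COL1A1 had 2216 against 3595 CPM and COL1A2 3961 against 6473 CPM. Of the 12 leukocyte markers 10 averaged under 1 CPM over the 36 libraries, PTPRC, CD3E and ITGAM among them, and none was at 0 in every library. Their summed level was 88.4, 123 and 165 CPM in Grain and 57.6, 80.8 and 126 CPM in Hay. Most of that sum was LCP1, with a mean of 119 CPM in Grain and 77.7 CPM in Hay. Of the 10 leukocyte markers tested 4 were higher and 4 lower in Grain. CSF1R, CD79A, LCP1 and CD68 were higher, and PTPRC, CD3E, CD14 and ITGAM were lower. The 7 endothelial markers summed to 25.8, 33.2 and 43.1 CPM in Grain and 24.7, 27.9 and 34.0 CPM in Hay. The part of these cell types in the differences between the media was not tested.

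Both interleukin 1 genes, IL6, CXCL8 and PTGS2 were lower in Grain medium over the mean of the 6 harvests. IL11 was higher in Grain by 5.07-fold, and LIF by 1.12-fold. All 7 genes passed the edgeR test, against 81.8% of all 22488 genes, so the count of calls sets these genes apart little from the background. The 2 higher and 5 lower calls stand beside 37.9% of all genes called higher and 43.9% called lower in Grain. The median log2 fold change of the 7 genes was -1.21, and that of all genes tested was -0.066. In bulk RNA, fewer cells of a type and less RNA per cell cannot be told apart.

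IL1A, the interleukin 1 form that keratinocytes hold in store, was at 54.7 ± 12.8 CPM in Grain and 125 ± 17.1 CPM in Hay (SD, n = 18 libraries each). The 18 Grain libraries ran from 36.1 to 78.2 CPM with a median of 55.5, and the 18 Hay libraries from 93.3 to 148 CPM with a median of 125. The ranges did not overlap. This is a log2 fold change of -1.21 ± 0.016 (SE, adjusted p = 3.03e-38), or 2.32-fold lower in Grain.

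IL1B lies beside IL1A in the RefSeq gene table and was close to the limit of detection, with 4 to 28 counts a library in Grain and 21 to 43 in Hay. Its level was 0.214 ± 0.099 CPM in Grain and 0.481 ± 0.106 CPM in Hay (SD, n = 18 each). Libraries of the media overlapped, with a highest Grain value of 0.440 CPM and a lowest Hay value of 0.335 CPM. The log2 fold change of -1.20 ± 0.18 (SE, adjusted p = 1.49e-07) passed the test all the same.

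CXCL8, the neutrophil chemokine, was at 503 ± 35.7 CPM in Grain and 1401 ± 295 CPM in Hay (SD, n = 18 each). Grain libraries lay between 451 and 578 CPM with a median of 503, and Hay libraries between 1038 and 1926 CPM with a median of 1301. The lowest Hay library stood well above the highest Grain library. In log2 terms the change was -1.45 ± 0.020 (SE, adjusted p = 5.24e-38), a 2.73-fold difference.

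PTGS2 was at 582 ± 217 CPM in Grain and 1286 ± 88.4 CPM in Hay (SD, n = 18 each). The Grain libraries spread from 304 to 987 CPM around a median of 552, while the Hay libraries kept between 1122 and 1422 CPM around 1303. The media did not overlap, and the spread among harvests was on the Grain side. Grain over Hay was -1.23 ± 0.022 on the log2 scale (SE, adjusted p = 1.59e-34). A non-coding gene, LOC121816051, overlaps PTGS2 in the RefSeq table, and this library kit keeps no strand, so that reads in the shared stretch cannot be told apart. That gene held at most 0.632% of the count of PTGS2 in a Grain library and 0.425% in a Hay library, and summing the 2 rows left the log2 fold change at -1.23.

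IL6, the founding member of the gp130 cytokines, was at 3.15 ± 0.428 CPM in Grain and 10.3 ± 1.54 CPM in Hay (SD, n = 18 each). Grain libraries ran from 2.59 to 3.96 CPM with a median of 3.00, and Hay libraries from 7.55 to 13.4 CPM with a median of 9.91. They did not overlap. The log2 fold change of -1.70 ± 0.044 (SE, adjusted p = 4.60e-29) was the strongest fall among the 7 genes. IL6 overlaps the non-coding gene LOC105610700, which had 49 to 109 counts in Grain and 86 to 171 in Hay, up to 59.7% and 31.2% of the IL6 count of a library. The level of IL6 is therefore uncertain. With both rows summed the log2 fold change was -1.46 (adjusted p = 7.39e-28).

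IL11, a gp130 cytokine of epithelia and stroma, went the other way. Its level was 37.5 ± 12.1 CPM in Grain and 8.66 ± 6.25 CPM in Hay (SD, n = 18 each). The Grain libraries ran from 22.0 to 59.7 CPM with a median of 34.7, and the Hay libraries from 3.21 to 21.3 CPM with a median of 5.88. Every Grain library was above every Hay library, although the lowest Grain value, at T8, was within 1 CPM of the highest Hay value, at T12. The log2 fold change was 2.34 ± 0.035 (SE, adjusted p = 8.99e-37), and 121 of the 22488 genes, 0.538%, were at least as far up.

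LIF, a gp130 cytokine with many target tissues, was at 2.07 ± 0.483 CPM in Grain and 1.86 ± 0.491 CPM in Hay (SD, n = 18 each). The libraries ran from 1.495 to 3.30 CPM in Grain and from 1.22 to 2.68 CPM in Hay, with 80 to 183 counts each, and overlapped over most of that range. The log2 fold change of 0.17 ± 0.071 (SE) had an adjusted p of 0.0288. This call was lost with library totals in place of TMM factors (0.046, adjusted p = 0.554), with DESeq2 size factors (0.14, adjusted p = 0.0762), in DESeq2 (adjusted p = 0.0986), without a filter on low counts (adjusted p = 0.0514) and without the 6 libraries of T12 (adjusted p = 0.0758). It was also lost in 7 of the 36 refits that each left out 1 library: Grain T0 replicate 3, T8 replicate 2 and T12 replicate 1, and Hay T0 replicate 3, T12 replicate 2, T16 replicate 3 and T20 replicate 1. Across those refits the log2 fold change of LIF ran from 0.13 to 0.19 and its adjusted p from 0.0119 to 0.0649.

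Counted by library, 5 of the 7 genes had no overlap between the 18 Grain and the 18 Hay libraries, against 27.2% of all genes tested. IL11 was the gene higher in Grain (background 15.4%), and IL1A, IL6, CXCL8 and PTGS2 were lower (background 11.9%). Placed among all genes by log2 fold change from the low end, IL6 had 7.29% of genes at least as far down, CXCL8 9.66%, PTGS2 12.5%, IL1A 12.8% and IL1B 13.1%. LIF had 36.5% of genes at least as far up.

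**Figure D1:**
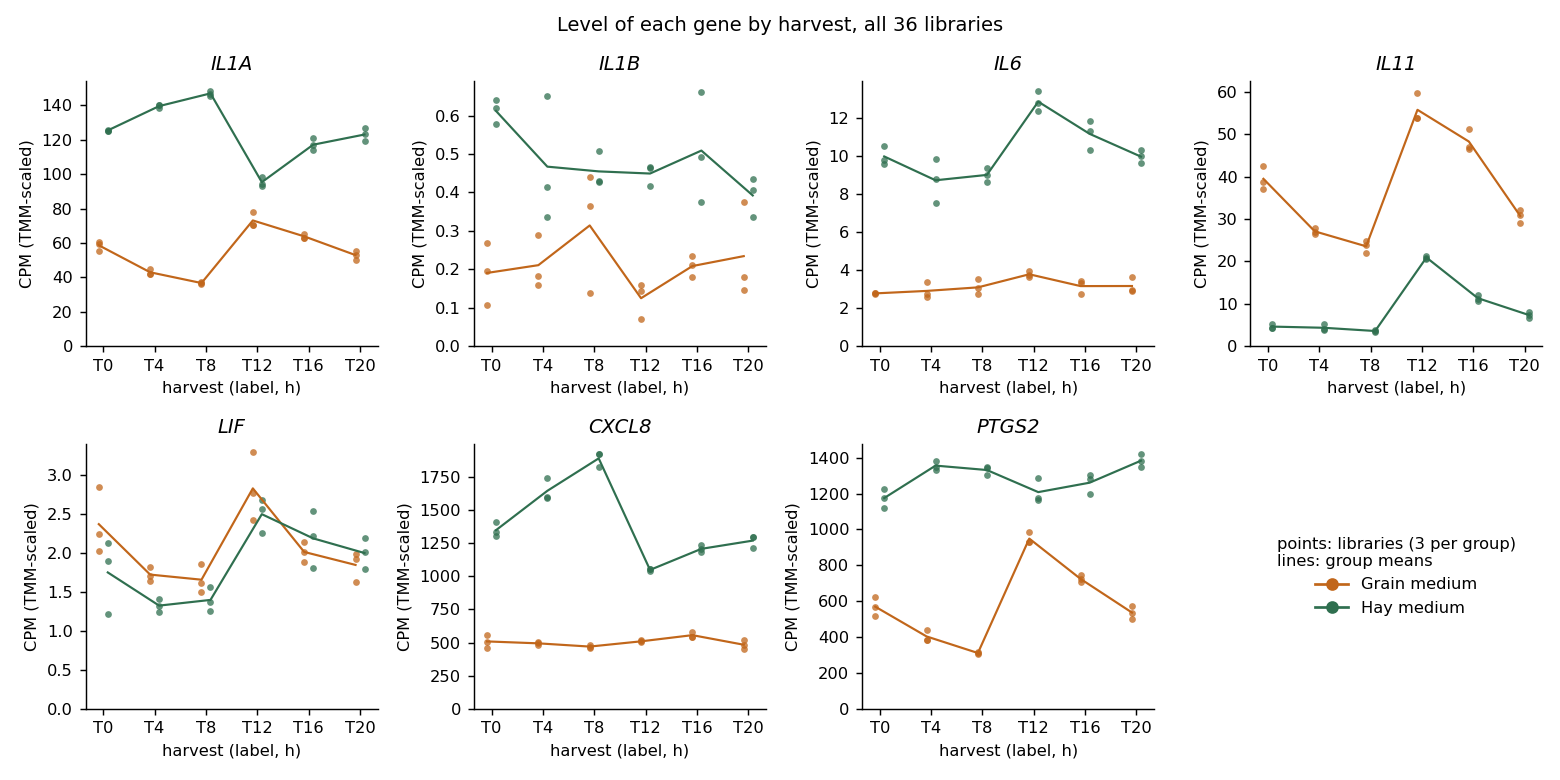
Level of each of the 7 genes in CPM (y axes, TMM-scaled, each starting at 0) by harvest label in h (x axes), with points for the 36 libraries and lines through the means of 3. Grain libraries of IL1A, IL6, CXCL8 and PTGS2 lie below and those of IL11 above all Hay libraries. The Grain lines of IL1A, IL11, LIF and PTGS2 share a low at T8 and a high at T12.

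The difference between the media was next followed over the harvests. Members called at T0, T4, T8, T12, T16 and T20 numbered 7, 6, 5, 6, 6 and 5 of 7, against 62.8%, 57.8%, 56.8%, 64.3%, 62.7% and 58.9% of all genes. IL1A, IL6, CXCL8 and PTGS2 were lower and IL11 higher in Grain at each of the 6 harvests. The size of the difference depended on the harvest for IL1A (adjusted p = 2.67e-21), PTGS2 (1.74e-19), CXCL8 (5.09e-14) and IL11 (2.31e-13), which makes 4 of 7 genes against 32.6% of all genes. It was not shown to depend on it for LIF (adjusted p = 0.237), IL6 (0.403) or IL1B (0.408).

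IL1A, PTGS2 and CXCL8 were farthest apart at T8 and closest at T12. For PTGS2 the log2 fold change was -2.10 ± 0.054 at T8 and -0.35 ± 0.052 at T12 (SE), so a 4.28-fold difference became a 1.27-fold one within the next interval. For IL1A it was -2.00 ± 0.040 at T8 and -0.38 ± 0.039 at T12. For CXCL8 it was -2.01 ± 0.049 at T8 and -1.04 ± 0.048 at T12. The other 4 harvests of these 3 genes lay between those values.

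IL11 was most apart at T0, with a log2 fold change of 3.10 ± 0.088, and least at T12, with 1.42 ± 0.077 (SE). In folds that is 8.58 against 2.67. IL6 kept between -1.85 at T0 and -1.54 at T8 with standard errors near 0.11. With SEs of 0.41 to 0.46, IL1B ran from -1.83 at T12 to -0.52 at T8 and passed the test at T0, T4, T12 and T16. Its adjusted p was 0.293 at T8 and 0.141 at T20.

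Single libraries decided some of these calls for IL1B. The T4 call (-1.14, adjusted p = 0.0225) was lost without Grain T4 replicate 2 (-0.98, 0.0854), without Grain T4 replicate 3 (-1.04, 0.0729) or without Hay T4 replicate 3 (-0.83, 0.142). The T16 call (-1.28, adjusted p = 0.0104) was lost without Hay T16 replicate 1 (-1.05, 0.0589). At T20, IL1B passed without Grain T20 replicate 1 (-1.26, adjusted p = 0.0289).

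LIF passed at T0 alone, with 0.44 ± 0.17 (SE, adjusted p = 0.0267). The T0 call was lost with library totals (0.28, adjusted p = 0.154), in DESeq2 (0.39, 0.0605), without the filter on low counts (0.41, 0.0544) and with the 6 T0 libraries alone (0.42, 0.110). It was also lost without Grain T0 replicate 3 (0.28, 0.196) or Hay T0 replicate 3 (0.23, 0.263). At T4 the value of LIF was 0.38 (adjusted p = 0.0672), and it passed without Hay T0 replicate 3 (0.37, 0.0453). From T16 on its log2 fold change was below 0, at -0.12 and -0.11, neither past the test (adjusted p = 0.565 and 0.599).

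**Figure D2:**
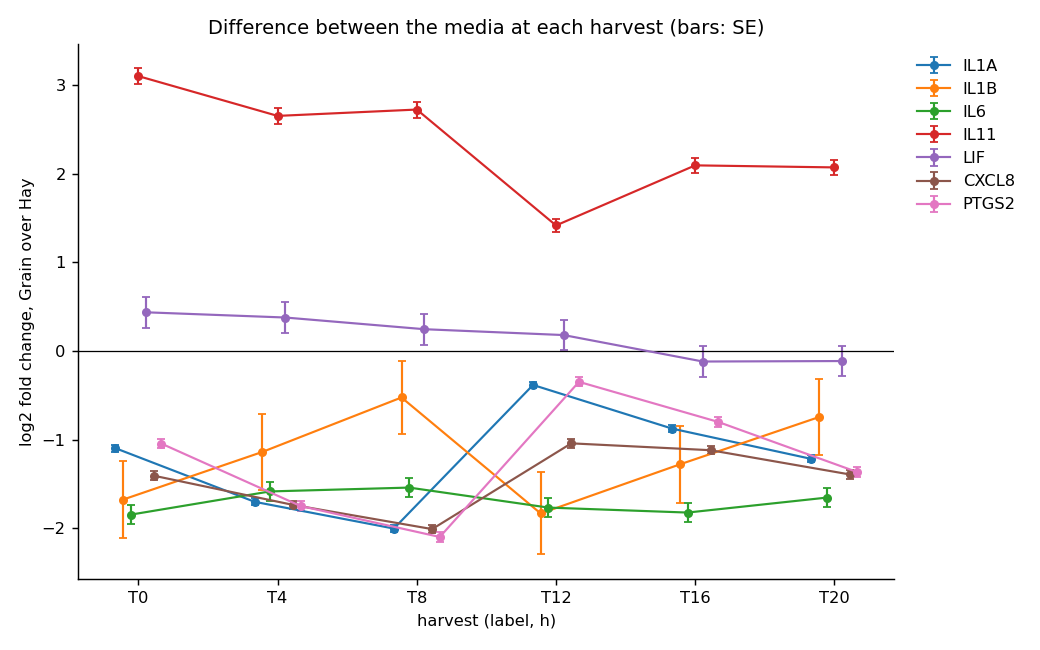
Log2 fold change of Grain over Hay (y axis) at each harvest label in h (x axis) for the 7 genes, with bars for the SE of the edgeR fit. PTGS2 and IL1A go from -2.10 and -2.00 at T8 to -0.35 and -0.38 at T12, IL11 from 2.72 to 1.42, and IL6 stays between -1.85 and -1.54.

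Within a medium, 6 of the 7 genes differed among the harvests in Grain (background 51.5%) and 6 of 7 in Hay (background 35.2%). IL1B did not pass in either (adjusted p = 0.240 in Grain and 0.850 in Hay).

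In Grain, the 3 libraries of PTGS2 had 625, 569 and 515 CPM at T0, then 386, 385 and 439 (T4) and 319, 304 and 310.2 (T8). The later harvests had 987, 929 and 932 (T12), 723, 745 and 705 (T16) and 503, 534 and 572 CPM (T20). The order from low to high was T8, T4, T20, T0, T16, T12, and of the 5 neighbouring pairs in it only T20 and T0 overlapped. In Hay, PTGS2 had 1176, 1122 and 1227 CPM (T0), 1350.1, 1384 and 1334 (T4) and 1347, 1304 and 1344 (T8). It went on with 1162, 1175 and 1288 (T12), 1281, 1199 and 1302 (T16) and 1422, 1382 and 1346 CPM (T20). The Hay harvests were close together, with 4 of 5 neighbouring pairs overlapping. The highest harvest mean of PTGS2 was 3.05 times the lowest in Grain and 1.18 times in Hay. Both courses passed the test over harvests (adjusted p = 2.40e-23 in Grain and 0.000984 in Hay).

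IL1A in Grain had 60.7, 59.5 and 55.6 CPM (T0), 41.9, 44.9 and 42.0 (T4) and 37.4, 36.1 and 36.5 (T8). From T12 it had 70.6, 70.3 and 78.2, then 65.4, 63.0 and 63.0 (T16) and 50.2, 55.5 and 53.0 CPM (T20). It took the same order of harvests as PTGS2 in Grain, with no overlap between neighbours. In Hay, IL1A had 126, 125 and 125 CPM (T0), 140.0, 139 and 140.0 (T4) and 148, 147 and 146 (T8). At T12 the libraries had 98.2, 93.3 and 94.3, followed by 121, 114 and 117 (T16) and 119, 123 and 127 CPM (T20). Here T8 was the highest harvest and T12 the lowest, the reverse of Grain, with overlap between T16 and T20 and between T20 and T0. The highest mean was 1.99 times the lowest in Grain and 1.54 times in Hay (adjusted p over harvests 5.58e-21 and 9.61e-15).

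CXCL8 in Hay had 1406, 1334 and 1302 CPM (T0), 1742, 1599 and 1592 (T4) and 1926, 1821 and 1921 (T8). Next came 1054, 1038 and 1052 (T12), 1204, 1179 and 1237 (T16) and 1294, 1212 and 1299.6 CPM (T20). This is the order of IL1A in Hay, T12, T16, T20, T0, T4, T8 from low to high, with overlap between T16 and T20 alone. In Grain, CXCL8 had 557, 508 and 460.0 CPM (T0), 482, 495 and 503 (T4) and 482, 467 and 459 (T8). It had 515, 502 and 509 (T12), 545, 544 and 578 (T16) and 479, 451 and 519 CPM (T20) after that. In Grain 4 of 5 neighbouring pairs overlapped, and T16 stood above T12 without overlap. The highest mean was 1.80 times the lowest in Hay and 1.18 times in Grain (adjusted p over harvests 9.85e-17 and 0.000867).

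IL11 in Grain had 42.4, 38.8 and 37.2 CPM (T0), 26.4, 27.0 and 27.8 (T4) and 22.0, 23.8 and 24.8 (T8). The T12 libraries had 53.7, 53.8 and 59.7, those of T16 46.4, 47.1 and 51.3 and those of T20 29.1, 32.2 and 30.9 CPM. No 2 neighbours in the order of the Grain harvests overlapped. In Hay, IL11 had 4.35, 5.12 and 4.32 CPM (T0), 3.70, 4.07 and 5.18 (T4) and 3.86, 3.21 and 3.61 (T8). It then had 21.3, 20.5 and 20.9 (T12), 10.7, 11.1 and 12.1 (T16) and 6.57, 7.26 and 8.09 CPM (T20). T8 was the lowest and T12 the highest harvest of IL11 in both media, T16 came second, and neighbours overlapped in Hay between T8 and T4 and between T4 and T0. The highest mean was 2.37 times the lowest in Grain and 5.87 times in Hay (adjusted p over harvests 9.42e-17 and 8.00e-24).

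IL6 was highest at T12 in both media, with 3.78 ± 0.164 CPM in Grain and 12.9 ± 0.516 CPM in Hay (SD, n = 3). Its lowest means were 2.78 ± 0.046 CPM at T0 in Grain and 8.73 ± 1.14 CPM at T4 in Hay. T12 stood above the next harvest without overlap in both media, while 4 of 5 neighbouring pairs overlapped in Grain and 3 of 5 in Hay. The adjusted p over harvests was 0.0227 in Grain and 0.000125 in Hay. The Grain call of IL6 was lost without Grain T12 replicate 1 (0.106), without Grain T12 replicate 2 (0.0547), with library totals in place of TMM factors (0.196) and with the 18 Grain libraries alone (0.104). Without the 6 T12 libraries neither medium passed for IL6 (adjusted p = 0.555 in Grain and 0.0669 in Hay).

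LIF was highest at T12 too, at 2.83 ± 0.443 CPM in Grain and 2.50 ± 0.218 CPM in Hay (SD, n = 3). It was lowest at T8 in Grain with 1.66 ± 0.182 CPM and at T4 in Hay with 1.32 ± 0.086 CPM. All neighbouring pairs of harvests overlapped, and the test over harvests passed in both media (adjusted p = 0.00106 in Grain and 0.000135 in Hay). Without the T12 libraries it did not pass for LIF in Grain (adjusted p = 0.101). IL1B means ran from 0.125 ± 0.047 CPM at T12 to 0.314 ± 0.158 CPM at T8 in Grain, and from 0.392 ± 0.052 CPM at T20 to 0.612 ± 0.032 CPM at T0 in Hay (SD, n = 3), with overlap between all neighbours.

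The interval from T8 to T12 was then tested by itself, a comparison chosen after the levels were seen. In Grain all 7 genes passed, 6 up and 1 down, against 50.0% of all genes (23.5% up and 26.5% down). In Hay 6 passed, 3 up and 3 down, against 36.1% (19.6% up and 16.4% down). The step differed between the media for 4 of 7 genes, against 32.5% of all genes. The split of all genes into up and down depended on the scaling. With library totals in place of TMM factors, the share of calls that were up moved from 47.0% to 14.9% in Grain. In Hay this share moved from 54.5% to 27.8%, and for the difference of the step between the media from 44.2% to 20.5%.

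IL11, LIF and IL6 rose in both media, IL6 in Grain only with some scalings. The step of IL11 was 1.24 ± 0.076 on the log2 scale in Grain and 2.55 ± 0.091 in Hay (SE), and the difference of -1.31 ± 0.12 passed (adjusted p = 4.04e-11). LIF rose by 0.77 ± 0.17 and 0.84 ± 0.17 (adjusted p of the difference 0.878), and IL6 by 0.29 ± 0.11 and 0.51 ± 0.10 (0.275, or 0.0481 with library totals).

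IL1A and PTGS2 rose in Grain and fell in Hay. PTGS2 rose by 1.61 ± 0.054 in Grain, a 3.05-fold step, and moved by -0.14 ± 0.052 in Hay (SE), with a difference of 1.75 ± 0.074 (adjusted p = 6.12e-20). The small Hay fall of PTGS2 (adjusted p = 0.0322) was lost in 5 refits, without Hay T8 replicate 1 (-0.13, 0.108), Hay T8 replicate 3 (-0.13, 0.0835), Hay T12 replicate 1 (-0.11, 0.173), Hay T12 replicate 2 (-0.11, 0.154) or Grain T20 replicate 2 (-0.14, 0.0515). IL1A rose by 1.00 ± 0.040 in Grain and changed by -0.62 ± 0.038 in Hay, and the difference was 1.62 ± 0.056 (adjusted p = 8.34e-22).

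In Hay, CXCL8 changed by -0.85 ± 0.047 (SE, log2) over this interval (adjusted p = 4.98e-17). Its Grain step of 0.12 ± 0.047 (adjusted p = 0.0386) depended on the scaling, turning to -0.16 (adjusted p = 0.00256) with library totals. That Grain call was also lost with the Grain libraries alone (adjusted p = 0.0596). It was lost in 11 of 36 refits: without Grain T0 replicate 2, T4 replicate 2, T8 replicate 2 or 3, T12 replicate 1 or 3 or T20 replicate 1, and without Hay T0 replicate 2 or T12 replicate 1, 2 or 3. In the 36 refits the Grain step of CXCL8 lay between 0.10 and 0.14 with an adjusted p from 0.0222 to 0.126. The difference between the media, 0.97 ± 0.067 (adjusted p = 4.18e-14), held under every setting tried.

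IL1B and IL6 had Grain steps that rested on few libraries. IL1B stepped by -1.33 ± 0.47 in Grain (SE, adjusted p = 0.0179), on 8, 24 and 28 counts at T8 and 4, 8 and 9 at T12, and the libraries overlapped in CPM. It was lost without Grain T8 replicate 1 (-1.01, 0.111), T8 replicate 2 (-1.21, 0.0566) or T12 replicate 3 (-1.04, 0.0995). In Hay its step was -0.02 ± 0.40 (adjusted p = 0.981). The difference of -1.31 ± 0.62 between the media did not pass for IL1B (adjusted p = 0.107), except without Grain T8 replicate 3 (-1.66, 0.0349). The IL6 call in Grain (adjusted p = 0.0331) was lost without Grain T8 replicate 1 (0.27, 0.0822), T8 replicate 3 (0.21, 0.174) or T12 replicate 1 (0.26, 0.0965), and with library totals (0.0084, 0.959).

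**Figure D3:**
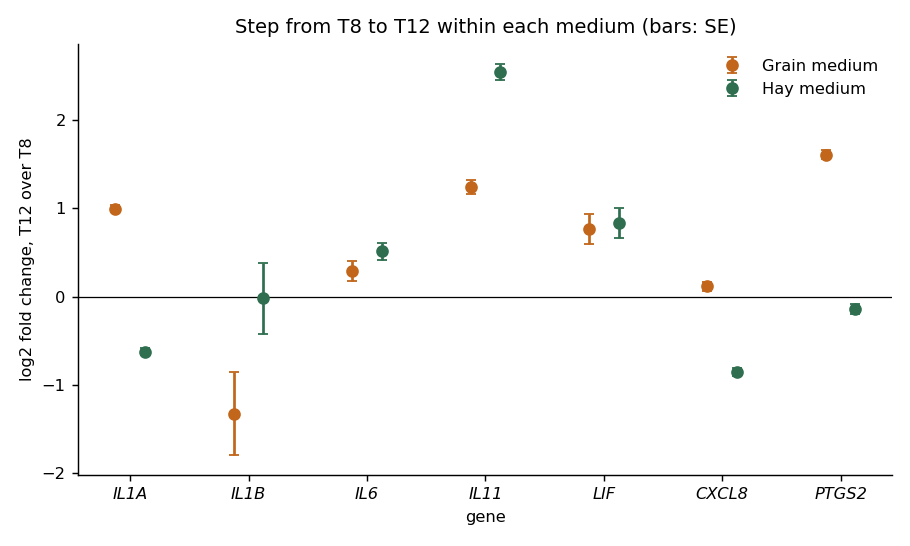
Log2 fold change from T8 to T12 (y axis) for each gene (x axis) in Grain and Hay medium, with bars for the SE of the edgeR fit. IL11, LIF and IL6 are above 0 in both media (IL6 in Grain is at 0.0084 with library totals), IL1A and PTGS2 above 0 in Grain (1.00 and 1.61) and below it in Hay (-0.62 and -0.14), and CXCL8 is at -0.85 in Hay.

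A cosine of fixed 24 h period was fitted for each medium. The harvests cover less than 1 full cycle of 24 h, so a fitted component describes these 6 harvests and no repeat of them was seen. In Grain 4 of 7 genes passed (background 31.8%), and in Hay 4 of 7 (background 20.7%).

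In Grain, PTGS2 had an amplitude of 0.53 ± 0.090 on the log2 scale and a peak at 15.8 ± 0.65 h after T0 (SE, adjusted p = 0.000157). IL1A had 0.34 ± 0.068 and a peak at 16.6 ± 0.77 h (adjusted p = 0.00124), and IL11 0.43 ± 0.13 with a peak at 15.6 ± 1.18 h (adjusted p = 0.0341). These 3 fitted peaks lay within about 1 h of each other. All 3 genes were highest at T12 in Grain, before their fitted peaks. The SE of a peak belongs to the fitted cosine and does not give the time of the highest harvest. IL6 passed narrowly in Grain, with 0.17 ± 0.055 and a peak at 13.0 ± 1.23 h (adjusted p = 0.0446). CXCL8 (adjusted p = 0.549), LIF (0.439, or 0.0137 with a linear trend in the fit) and IL1B (0.769) did not pass.

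In Hay, IL11 had the widest fitted swing, with an amplitude of 1.11 ± 0.15 and a peak at 14.3 ± 0.50 h (SE, adjusted p = 2.92e-06). LIF had 0.41 ± 0.096 with a peak at 15.9 ± 0.88 h (adjusted p = 0.00596), and IL6 0.22 ± 0.050 with a peak at 14.8 ± 0.89 h (adjusted p = 0.00508). CXCL8 had its fitted peak at another time, 4.91 ± 0.59 h, with an amplitude of 0.31 ± 0.048 (adjusted p = 3.90e-05). In Hay the highest harvest was T12 for IL11, LIF and IL6, before their fitted peaks, and T8 for CXCL8, after its fitted peak. PTGS2 showed next to no 24 h component in Hay, with 0.021 ± 0.090 (adjusted p = 0.988). IL1A in Hay had 0.19 ± 0.066 with a peak at 3.37 ± 1.31 h (adjusted p = 0.0886), and passed with library totals (0.00839), without the T12 libraries (0.00989), with a linear trend (0.0244) or with the Hay libraries alone (0.00741). IL1B did not pass (adjusted p = 0.914).

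The 24 h component itself differed between the media for CXCL8 (adjusted p = 0.000982), IL1A (0.00113), PTGS2 (0.0110) and IL11 (0.0235), 4 of 7 genes against 11.3% of all genes. It was not shown to differ for LIF (0.414), IL6 (0.678) or IL1B (0.929). The IL11 difference was lost without Hay T12 replicate 1 (0.0556), 2 (0.0537) or 3 (0.0548).

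The Grain components of IL11 and IL6 were fragile. That of IL11 was lost with library totals (adjusted p = 0.0728) and without Grain T4 replicate 1 (0.0658), 2 (0.0628) or 3 (0.0557), T12 replicate 1 (0.0516), 2 (0.0514) or 3 (0.0550), or T16 replicate 2 (0.0522) or 3 (0.0652). That of IL6 was lost in 20 of the 36 refits without 1 library, with adjusted p up to 0.120, and under 5 other settings, among them the fit without the T12 libraries (0.398). Of the Grain libraries only T4 replicate 3, T8 replicate 1 and 3, T16 replicate 3 and T20 replicate 2 and 3 could be left out without losing IL6. Among the Hay libraries, its call was lost without T0 replicate 2 or 3, T4 replicate 2, T8 replicate 1, T16 replicate 1 or 3, or T20 replicate 2 or 3.

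The genes were also compared with each other over the 18 libraries of each medium. These correlations of log2(CPM + 0.5) are descriptions, since the points share their library and its scaling and come from 6 harvests. In Grain, IL1A, IL11 and PTGS2 went together, with r = 0.963 for IL1A and IL11, 0.975 for IL1A and PTGS2 and 0.961 for IL11 and PTGS2. In Hay the same pairs gave -0.937, 0.489 and -0.361. So IL1A and IL11 shared their course in Grain and took opposite courses in Hay. LIF correlated with IL1A, IL11 and PTGS2 at 0.739, 0.755 and 0.751 in Grain and at -0.783, 0.821 and -0.450 in Hay.

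In Hay, IL1A and CXCL8 correlated at 0.933 (0.566 in Grain). IL6, IL11 and LIF correlated with each other at 0.850 for IL6 and IL11, 0.821 for IL11 and LIF and 0.799 for IL6 and LIF, against 0.403, 0.755 and 0.439 in Grain. Between IL1A or CXCL8 and these 3 the sign was negative in Hay, as with -0.883 for IL11 and CXCL8, which was 0.628 in Grain. IL1B, with few counts, gave r between -0.402 and 0.067 with the other 6 genes in Hay.

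**Figure D4:**
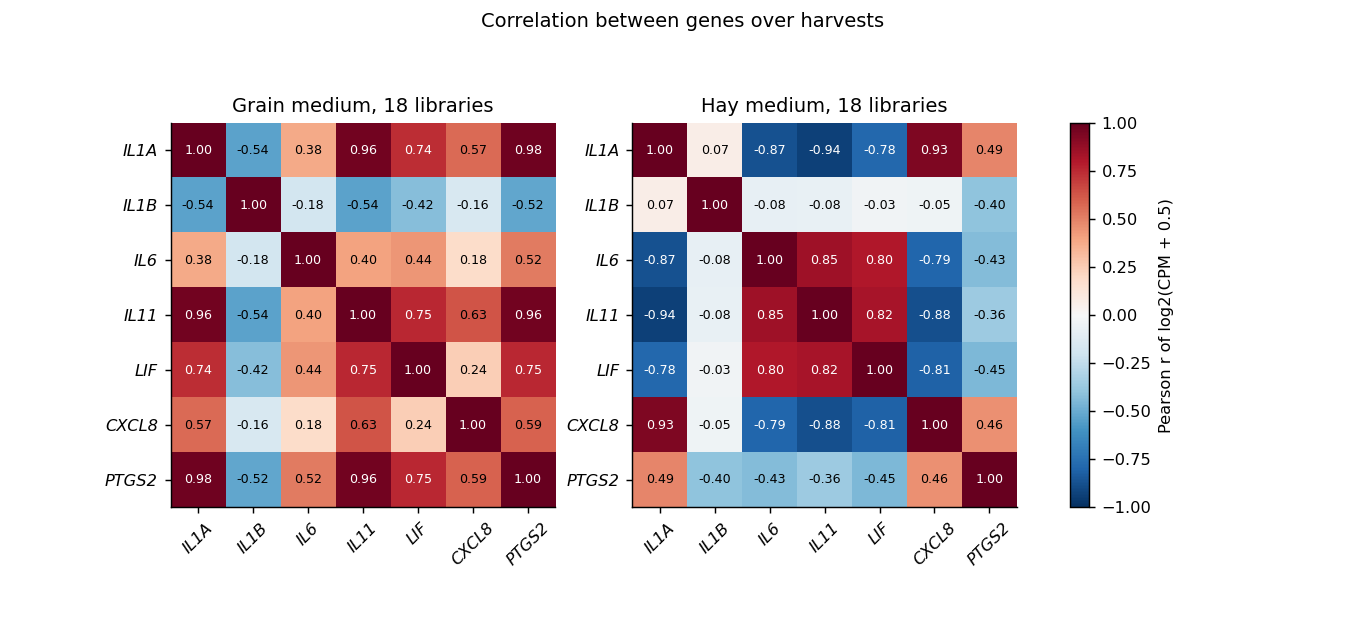
Pearson r of log2(CPM + 0.5) between the 7 genes (both axes) over the 18 Grain libraries (left) and the 18 Hay libraries (right), coloured from -1 to 1. IL1A with IL11 is 0.96 in Grain and -0.94 in Hay, and IL1A with CXCL8 is 0.57 and 0.93.

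For each gene, the 2 genes with the most similar course were found over all 36 libraries, after the mean of each medium was subtracted, among 10575 genes of at least 5 CPM. PTGS2 was most like SGK1 (r = 0.980), a kinase gene induced by serum and glucocorticoids, and HSPA1A (0.977), a heat shock protein 70 gene that overlaps HSPA1L. The likeness was closer in Grain, with r of 0.984 for SGK1 and 0.988 for HSPA1A, than in Hay, with 0.868 and 0.697. Both were also lower in Grain, SGK1 with 203 against 512 CPM and HSPA1A with 119 against 252 CPM. IL1A was most like the transcription factor gene SOX4 (0.965), at 202 CPM in Grain and 644 CPM in Hay, and TP53INP1 (0.953). IL11 was most like WDR1 (0.979), which codes for a factor of actin filament turnover, and SEC61A1 (0.967), which codes for the channel of protein entry into the endoplasmic reticulum. Both were higher in Grain, WDR1 with 190.1 against 119 CPM and SEC61A1 with 234 against 133 CPM.

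CXCL8 was most like NDRG1 (r = 0.920) and ZBTB11 (0.893), mainly by its Hay course, since r in Hay was 0.965 and 0.930 and in Grain 0.645 and 0.527. LIF was most like MYO1C (0.866) and MOB3A (0.843), and IL6 like MCUB (0.796) and MICOS10 (0.795). IL1B was most like DOCK8 (0.614) and IMMP2L (0.582), the weakest likeness of the 7. Of these genes, TP53INP1, NDRG1, MYO1C, MICOS10 and IMMP2L overlap other annotated genes.

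The rest of the pathways was read from lists in the mean comparison of Grain and Hay. The counts of calls in each list stand beside 37.9% of all genes called higher and 43.9% called lower in Grain. They include genes under 1 CPM in both media, among them CASP1, NLRP1, CXCL9 and CCL5 with lower and CSF2 and CSF3 with higher calls. All 6 tested ligands of the interleukin 1 family beside IL1A and IL1B were lower in Grain, with a median log2 fold change of -1.02. Among these 6, IL36A and IL36B overlap each other in the RefSeq table. IL33, an alarm cytokine of epithelial nuclei, was at 10.3 ± 1.61 CPM in Grain and 23.4 ± 4.74 CPM in Hay (SD, n = 18; log2 fold change -1.18, adjusted p = 2.53e-25), and overlaps LOC101119963. IL18 was at 92.3 ± 7.17 against 137 ± 11.6 CPM (-0.56), and IL1RN, which codes for the natural antagonist of the interleukin 1 receptor, at 5.36 ± 0.748 against 9.96 ± 0.679 CPM (-0.90). The list thus holds agonists and antagonists, and all were lower.

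The 16 interleukin 1 receptors and adaptors split into 7 higher and 9 lower in Grain, with a median of -0.17. The receptor-proximal kinase genes IRAK1 (0.91) and IRAK2 (0.91) and the shared receptor chain IL1RAP (0.44) were higher. Among the 9 lower were the adaptor gene MYD88 (-0.42) and the receptor gene IL1R1 (-0.30), named after their values were seen. IL1R1 overlaps LOC114114266. Of 8 tested genes of interleukin 1 processing and release, 2 were higher, 4 lower and 2 did not pass, with a median of -0.18. CAPN1, a calpain gene, was higher (0.24) and so was the inflammasome sensor NLRC4 (1.31), at 1.05 ± 0.276 against 0.420 ± 0.154 CPM, while the gasdermin gene GSDME was lower (-0.81). The mean of CAPN1 came from T0 (0.42), T12 (0.59) and T16 (0.50). At T4, T8 and T20 its values were -0.081, -0.0051 and -0.0026. NLRC4 overlaps LOC121819068 and GSDME overlaps PALS2.

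Of the 7 gp130 ligands other than IL6, IL11 and LIF, 2 were higher and 2 lower in Grain, and 3 did not pass (median 0.22). CLCF1, a ligand of this family, was higher by 0.24 (adjusted p = 0.0237), a call lost with library totals (0.12, 0.255), in DESeq2 (0.21, 0.0577), without the T12 libraries (0.16, 0.185) and without Grain T4 replicate 3 (0.17, 0.0764). Without Hay T16 replicate 1, the list had 1 gene lower in place of 2.

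Among the 16 gp130 receptor and signalling genes 10 were higher and 6 lower in Grain with TMM factors (median 0.14), and 8 and 8 with library totals (median 0.017). LIFR, the receptor of LIF, was at 144 ± 9.64 against 81.8 ± 5.69 CPM (SD, n = 18; 0.82), and JAK2 (0.50) and JAK1 (0.43) were higher too. STAT3 (-0.34), named after its value was seen, was among the 6 lower with TMM factors. LIFR and JAK1 overlap other annotated genes, so their levels are uncertain.

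Of 26 other chemokine genes listed, 15 had a row and 13 were tested. In Grain 9 of them were lower, 2 higher and 2 not past the test, with a median of -0.75. CCL20, which attracts dendritic and T cells through CCR6, was at 24.5 ± 5.38 CPM in Grain and 81.5 ± 23.1 CPM in Hay (SD, n = 18; -1.72, adjusted p = 1.55e-28). Its difference was -2.70 at T8, -1.22 at T12 and -1.04 at T16, where it was smallest. CXCL14 (-0.91) and CCL22 (-1.32) were lower as well.

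CXCR1 was not analysed here. Of the 7 chemokine receptors tested 3 were higher and 2 lower in Grain (median 0.15), against 1 higher and 2 lower with library totals. CXCR2, a receptor for CXCL8, was at 0.409 ± 0.141 CPM in Grain and 4.22 ± 0.857 CPM in Hay (SD, n = 18), a log2 fold change of -3.40 ± 0.084 (SE, adjusted p = 8.03e-30). It was lower at all 6 harvests, from -4.05 at T0 to -3.04 at T16. CXCR4 was higher (0.83), and ACKR2, a scavenger of chemokines that overlaps other genes, was higher by 0.15 with TMM factors and not past the test with library totals (0.031, adjusted p = 0.0737).

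Beside PTGS2, 14 genes of prostanoid synthesis, export and breakdown were tested, and 10 were lower, 2 higher and 2 not past the test (median -0.53). PLA2G4A, the phospholipase that frees arachidonic acid, was at 40.3 ± 3.52 CPM in Grain and 84.0 ± 2.67 CPM in Hay (SD, n = 18; -1.06, adjusted p = 7.75e-33). PTGR1, which breaks prostaglandins down, was lower (-0.88), and PTGIS, which makes prostacyclin, was higher (0.78) at 33.0 ± 3.71 against 19.1 ± 1.44 CPM. PLA2G4A and PTGR1 overlap other annotated genes. The 2 genes not past the test are named after their values were seen. PTGS1, the constitutive cyclooxygenase, had 28.6 ± 3.46 against 28.5 ± 4.95 CPM (0.020, adjusted p = 0.477). PTGES, the inducible prostaglandin E synthase, had 5.51 ± 0.638 against 5.54 ± 0.801 CPM (-0.0051, adjusted p = 0.933). With library totals 1 gene was higher and 12 were lower. Also 1 gene in place of 2 was higher without the T12 libraries or without Grain T8 replicate 1.

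Of 8 tested prostanoid receptors 5 were higher, 2 lower and 1 not past the test (median 0.15), and 3 and 3 were higher and lower with library totals. The prostaglandin D receptor PTGDR (0.68) and the prostaglandin E receptor PTGER4 (0.42) were higher, and the prostaglandin F receptor PTGFR was lower (-0.77).

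The list of 17 other cytokines had 7 genes higher, 5 lower and 5 not past the test, with a median of 0.66. Without the filter on low counts this median was 0.30. Among the higher genes, CSF3 had 0.146 against 0.0340 CPM and CSF2 0.121 against 0.0483 CPM, near the limit of detection. TNFSF10 (-1.08) and TNFSF15 (-0.69), ligands of the tumour necrosis factor family, were lower. LTA, another member of that family, was higher, with 2.68 ± 0.494 against 0.668 ± 0.207 CPM (SD, n = 18; 2.00, adjusted p = 5.78e-20), and overlaps LOC114109638.

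Among 27 regulators of cytokine transcription and mRNA decay 17 were higher, 8 lower and 2 not past the test, with a median of 0.36. ATF3, a stress-induced transcription factor, was at 223 ± 34.6 against 81.5 ± 16.8 CPM (SD, n = 18; 1.47, adjusted p = 2.85e-41), and NFKB2, which codes for a subunit of NF-kappa B, at 58.6 ± 4.22 against 25.0 ± 1.40 CPM (1.23). Both overlap other annotated genes. NFKBIZ, an NF-kappa B cofactor of IL6 transcription, was lower, at 84.3 ± 10.7 against 165 ± 13.3 CPM (-0.97, adjusted p = 5.45e-37).

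**Figure D5:**
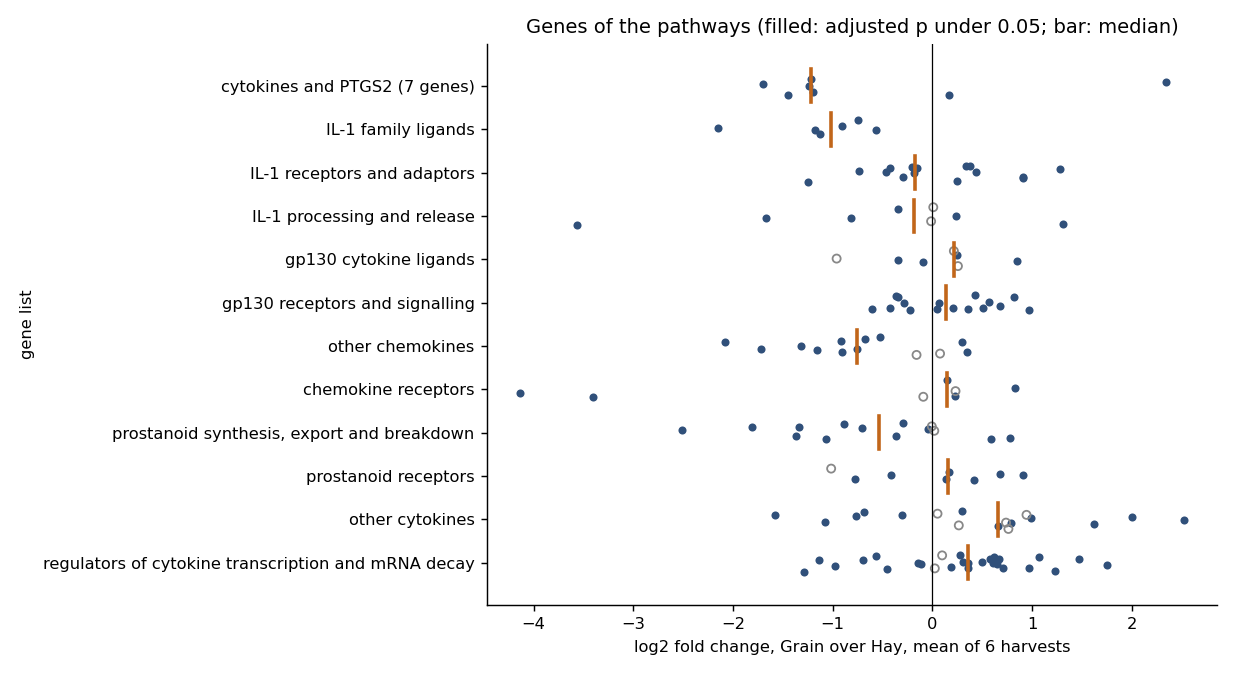
Log2 fold change of Grain over Hay, mean of 6 harvests (x axis), for the tested genes of each list (rows), filled where the adjusted p is under 0.05, with a bar at the median of the list. Beside the 7 genes with a median of -1.21, the other ligands of the interleukin 1 family have a median of -1.02, other chemokines -0.75 and prostanoid synthesis -0.53.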

How the data were processed

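Per the labels' protocols, TRNzol RNA went into TruSeq RNA v2 libraries, a kit that keeps no strand, for paired-end NovaSeq reads. The authors deposited whole-number read counts per gene and library, without normalisation. The submitters' processing notes name HISAT2 2.2.1, SAMtools 1.20 and StringTie 2.1.5, without saying which made the table; the genome build is not given in the sources used here. Genes were kept by filterByExpr (minimum count 10, minimum total 15, 12 groups) and scaled by TMM. Tests were two-sided edgeR 4.0.16 quasi-likelihood tests (R 4.3.3, limma 3.58.1) on 12 group means, or on a mean, cosine and sine per medium. They used all 36 libraries and Benjamini-Hochberg values over 22488 genes (threshold 0.05), and were checked on simulated data. DESeq2 1.42.0, other scalings, no filter, a minimum fold, a replicate block, a linear trend, libraries of one medium or time alone and leaving out libraries were alternatives. RefSeq (ARS-UI_Ramb_v3.0) gave names and overlaps only. Per list, up to 3 genes of the smallest p with at least 1 CPM are named; 1 such gene is not reported here. The members and lists were chosen with earlier results of these data known. Replicate numbers were not taken to pair libraries.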

Additional observations from a re-analysis of the deposited data

Results flagged for a closer look

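For 4 of the 7 genes the course over the harvests differed between the media by a direct test. Of all genes tested, 32.6% passed for dependence on the harvest. The shares were 32.5% for a different T8 to T12 step and 11.3% for a different 24 h component. The adjusted p for a Grain minus Hay difference that depends on the harvest was 1.74e-19 for PTGS2, 2.67e-21 for IL1A, 5.09e-14 for CXCL8 and 2.31e-13 for IL11. The signed Grain minus Hay difference of the T8 to T12 step was 1.75 for PTGS2 and 1.62 for IL1A on the log2 scale. It was 0.967 for CXCL8 and -1.31 for IL11. For CXCL8 the step itself was the larger in Hay, at -0.85 against 0.12 in Grain. The adjusted p for a different 24 h component was 0.011 for PTGS2, 0.00113 for IL1A, 0.000982 for CXCL8 and 0.0235 for IL11. The same 36 libraries give all 3 tests, so they are not independent. The 3 Grain libraries of T12 had the lowest TMM factors, 0.859 to 0.869, and the part of scaling and composition in these differences was not tested beyond the settings named. Without the 6 T12 libraries the adjusted p for the dependence on harvest was 8.73e-14 for PTGS2, 1.10e-15 for IL1A, 4.56e-10 for CXCL8 and 2.95e-07 for IL11.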

How the results depend on the processing

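The log2 fold changes of IL1A, IL1B, IL6, IL11, CXCL8 and PTGS2 in the mean comparison kept their direction and their call under every setting tried. With library totals in place of TMM factors the median of all genes moved from -0.066 to -0.187, and the share of calls higher in Grain from 46.3% to 38.1%. At single harvests that share moved from 50.3% to 39.0% at T0, from 47.8% to 33.7% at T12 and from 48.2% to 37.2% at T16. The T8 to T12 step of CXCL8 in Grain reversed under library totals alone, to -0.163. A minimum fold of 1.5 left 7328 of 18388 genes called in the mean comparison; by its construction fewer genes pass. In the lists it left, as higher and lower in Grain, 3 and 2 interleukin 1 receptors and adaptors, 1 and 2 genes of interleukin 1 processing, 0 and 0 gp130 ligands, 2 and 0 gp130 receptor and signalling genes, 0 and 7 other chemokines, 1 and 2 chemokine receptors, 1 and 5 genes of prostanoid synthesis, 1 and 1 prostanoid receptors, 4 and 4 other cytokines and 8 and 4 regulators. Without the 6 T12 libraries, 5089 genes differed among time points in Hay in place of 7927. The 4 members with a 24 h component in Grain became 2 with library totals alone. They ranged from 2 to 4 when single libraries were left out. Of all 22488 genes, 7157 had this component with TMM factors and 8547 with library totals. The 7 members that passed the T8 to T12 step in Grain became 4 with the 18 Grain libraries alone, which leaves fewer samples. In that fit 10755 of 21009 genes passed, against 11245 of 22488 with all 36 libraries. The labels do not tie replicate numbers to a shared source, and no pairing was assumed: same-numbered libraries correlated across media between -0.0412 and 0.0461 in 18 pairs, and over all groups between -0.0522 and 0.0729. Of the 36 libraries, 18 correlated best with their own number out of 3 numbers, which is a hint from the data and not the design. With a replicate block 18362 genes were called in the mean comparison, and among the members only the 24 h component of IL6 in Grain was lost (adjusted p = 0.0539). Other causes were not tested. With 4 to 43 counts a library, IL1B differences at a single harvest were at the limit of this depth.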
